A study of Mus musculus with 4 samples.

Results

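Distal chromosome 2 is taken here as the stretch of the mouse chromosome from 140 Mb to the last probe, which ends at position 182447819 (mm7, the build of the file headers). Members were the genes with a probe starting beyond 140 Mb, each represented by its brightest probe. There were 541 members of 27670 genes on the array. They came from 844 probes of 552 genes, of which 11 genes named in the selection rule were left out. The region was picked because its genes had differed between the groups compared below, so their differences in this comparison are a description and carry no test.

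RNA came from 4TO7 cells, a line from a mammary tumour of strain BALB/cfC3H, grown in DMEM with 10% FBS. One group of 2 arrays measured a stable line with the empty retroviral vector pMSCV-puro. The other group of 2 arrays measured a stable line carrying pMSCV-miR-23b/27b/24, which overexpresses a cluster of 3 microRNAs. The series describes the arrays of a group as transfection replicates, and the labels do not say whether a line was a clone or a pool, so the spread between arrays may not cover the difference between independently made lines. Each array set the cells' RNA, labelled with Cy5, against a Cy3-labelled reference RNA mixed from 11 mouse cell lines.

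MicroRNAs pair through their seed, bases 2 to 8, with messenger RNAs and lower the amount of those transcripts. The genes of 1 chromosomal segment have in general no common function. They share their number of DNA copies, however, and a segment present in more or fewer copies usually gives many moderate differences in the same direction among its active genes. Regulation gene by gene usually gives differences of both signs and uneven size. The comparison asked which of these patterns the distal genes showed. DNA copy number was not measured in these samples, and an extra or lost segment cannot be told apart here from other differences between the lines.

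The mature strands that define the overexpressing group are shown with the seed in capitals, from RefSeq (GRCm38.p6). MiR-27b-3p lies at chr13:63300760-63300780 and miR-24-3p at chr13:63301251-63301272, both on the plus strand, so the cell's own cluster lies outside chromosome 2. Where the retroviral vectors lay in the genome of the stable lines was not measured. MiR-23b-3p is the third product.
miR-27b-3p: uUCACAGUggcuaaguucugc
miR-24-3p: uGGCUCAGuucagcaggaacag

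Each gene was read by a probe of 60 bases. The first 30 bases are shown for 8 members on which the results turn: the pair nearest the limit (Macrod2, Flrt3), members with large positive differences (Lbp, Trp53inp2, Ncoa3), a typical member (Psma7) and the members with the largest negative differences called by the test (Sdcbp2, Pard6b). No letters are in capitals because no part of a probe is singled out. The coordinates of the Macrod2 and Lbp probes span an intron. The exons and untranslated regions that the probes hit were not analysed here.
Macrod2, chr2:140141798-140159695, plus strand: aaggaagagatgaagagcaaaggccaaaat
Flrt3, chr2:140400270-140400329, minus strand: accatttactttgtgttctactgagtaaga
Sdcbp2, chr2:151330530-151330589, plus strand: ctgggtattgcagggatgtgtcccaggtga
Trp53inp2, chr2:155130509-155130568, plus strand: ttgagactggctgaagtgaagaatctttga
Lbp, chr2:158069296-158072838, plus strand: acttccagatccgcaaggacttcttatact
Ncoa3, chr2:165811472-165811531, plus strand: aatctgttaggacaagaacacgattgtcgt
Pard6b, chr2:167893366-167893425, plus strand: tttaatttcaaggacaatagtgtttgttag
Psma7, chr2:180537357-180537416, minus strand: agaagcaaaagaaagcatcttgatgaagag

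On an array, Cy5 was well above background for 69.9% to 74.9% of gene probes. The 2 vector arrays correlated at 0.89 over genes, and the 2 miR-23b/27b/24 arrays at 0.95. All 7 epithelial and 4 fibroblast or mesenchymal markers were well above background on all 4 arrays, as were 3 of 4 leukocyte and 2 of 3 endothelial markers. Col1a1, a collagen of fibroblasts, and Ptprc, the leukocyte marker CD45, lay far below the reference on every array, with log2 ratios between -4.71 and -4.19 and between -5.82 and -5.72. Differences of the epithelial markers ran from -4.49 for Krt7 to 0.30 for Krt8, with Epcam at -3.61 and Cdh1 at -2.95. Krt5 differed by -0.01, and for Krt8 and Krt5 the groups overlapped. In bulk RNA, fewer cells with a transcript and less of it per cell cannot be told apart. The part of these markers in the differences described next was not tested.

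Of the 541 members, 438 passed the filter of the fit (a Cy5 signal well above background throughout 1 group or more), 6 of them only through the miR-23b/27b/24 arrays and 21 only through the vector arrays. On all 4 arrays 411 were above background in Cy5, and 453 were above background in the Cy3 reference. Brightness here is the mean log2 intensity over both channels and all arrays. By that measure 233 members were above 9 and are called bright, and 308 were dim. The limit of 9 was chosen after the data had been seen. In 1 member, 1700021F07Rik, an array value was missing.

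Over all 541 members the median difference in log2 ratio, miR-23b/27b/24 minus vector, was 0.11, and 354 members (65.4%) lay above 0. Over the 1668 other genes of chromosome 2 the median was -0.01, and 48.6% lay above 0. The difference depended on how bright the probe was. Among distal genes at a brightness up to 7 the median was 0.00 (n = 168), from 7 to 8 it was -0.04 (n = 90) and from 8 to 9 it was 0.05 (n = 50). In every class above 9 it lay between 0.42 and 0.61, with 83.3% to 90.2% of genes above 0. In those classes the rest of chromosome 2 had medians between 0.01 and 0.10, and the other chromosomes between -0.05 and 0.03. Below 9, the shares of distal genes above 0 were 50%, 45.6% and 56%, in order of brightness. The offset of 50 added to both channels at background correction pulls the log2 ratio of a dim spot towards 0. Its part in the values of the dim classes was not tested. Medians and shares along the chromosome below are for bright genes unless stated otherwise. The lists of genes by role and the single genes named include dim members. Macrod2, Rtel1, Sdcbp2, Pltp, Wfdc12 and Sgk2 are among the dim ones.

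**Figure D1:**
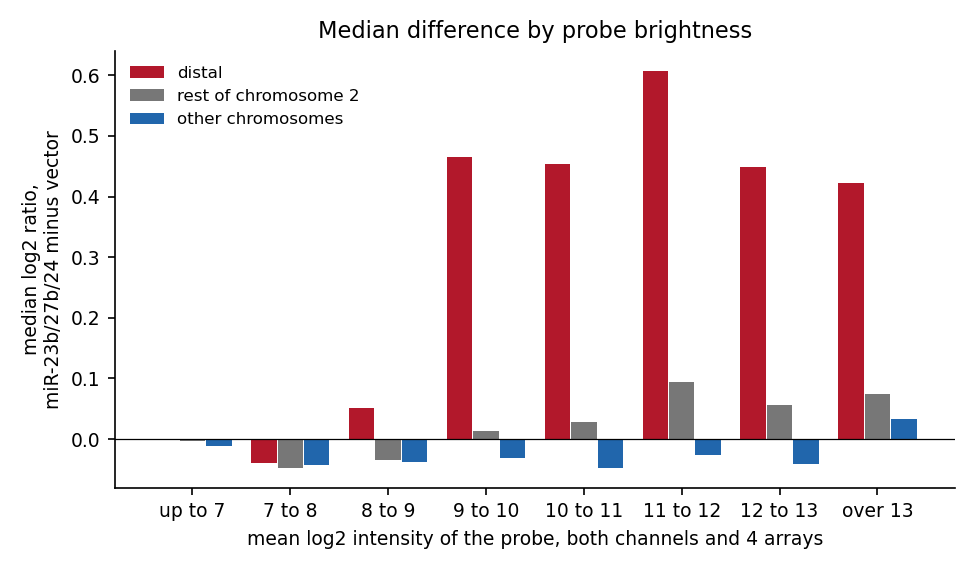
Median difference in log2 ratio (miR-23b/27b/24 minus vector, vertical axis) by class of probe brightness (horizontal axis), for distal genes, the rest of chromosome 2 and the other chromosomes. The distal bars stand between 0.42 and 0.61 in the 5 classes above 9 and near 0 in the 3 classes below.

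The 233 bright members had a median difference of 0.47 on the log2 scale, a 1.39-fold higher ratio with the microRNA cluster, and the difference was above 0 for 201 of them (86.3%). The 543 bright genes on the rest of chromosome 2 had a median of 0.06, with 54.1% above 0, and the 9125 on other chromosomes a median of -0.02, with 47.9% above 0. With each gene centred on its mean over the 4 arrays, the distal median minus that of the rest of chromosome 2 was -0.23 and -0.18 on the vector arrays and 0.20 and 0.22 on the miR-23b/27b/24 arrays. Both arrays of each group thus lay on the same side, and the groups did not overlap. The difference between them was 0.42 ± 0.03 (SE, n = 2 arrays per group). Without vector replicate 1 the distal median minus the rest was 0.39, and without vector replicate 2 it was 0.47.

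Among bright genes, whose limit was set after the data had been seen, the displacement was similar across the distribution. Distal minus rest of chromosome 2, they differed by 0.47 at the 10th percentile, 0.45 at the 25th, 0.42 at the median, 0.40 at the 75th and 0.39 at the 90th. The interquartile range was 0.59 among distal genes and 0.64 on the rest of the chromosome, and the SD over genes was 0.62 against 0.70. Over all members, dim ones included, the displacement was uneven: 0.14 at the 10th percentile, 0.09 at the 25th, 0.12 at the median, 0.37 at the 75th and 0.45 at the 90th. Their interquartile range was 0.59, against 0.30 on the rest of the chromosome. For genes detected in the reference it was 0.67 against 0.41. Of the bright members, 34 (14.6%) were higher by more than 1 on the log2 scale and 167 (71.7%) lay between 0 and 1. A further 32 (13.7%) lay below 0, among them 4 (1.72% of the bright members) below -1. On the rest of the chromosome 5.34% lay above 1, 48.8% between 0 and 1, 45.9% below 0 and 4.97% below -1.

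**Figure D2:**
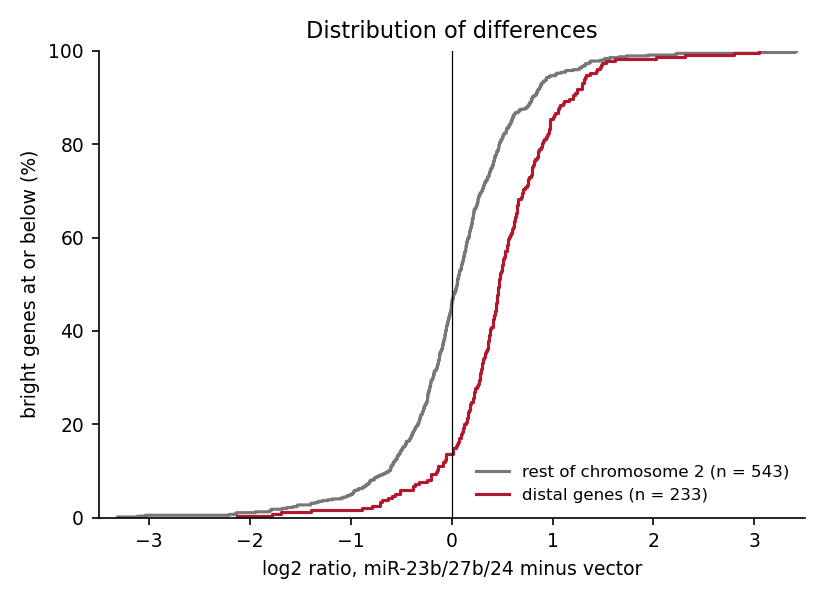
Cumulative share of bright genes (vertical axis, percent) at or below a given difference in log2 ratio (horizontal axis), for the 233 distal genes and the 543 genes on the rest of chromosome 2. The distal curve lies to the right by 0.47 at the 10th percentile and by 0.39 at the 90th.

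The same bright members were also described by other measures. In the Cy5 channel alone the median difference was 0.50, with 86.7% of members above 0. In the Cy3 reference channel it was 0.02, with 65.7% above 0. Bright genes on the rest of chromosome 2 had a Cy3 median of -0.001, with 49.0% above 0. Those on other chromosomes had 0.001, with 50.6% above 0. The reference channel of the members was thus also displaced, by little. A further 80 bright probes for 64 members were not used to represent them, and 73 of these lay above 0, with a median of 0.63. In 75 of the 80 the sign was that of the chosen probe. Members transcribed from the plus strand (n = 127) had a median of 0.47 and those from the minus strand (n = 106) one of 0.46. Members above the reference on average (n = 130) had a median of 0.47, and those below it (n = 103) one of 0.48. Members with a probe GC content at or below the median of 41.7% had a median of 0.43, and the others one of 0.50.

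In 5 Mb steps, all 9 distal medians of bright genes lay above 0. On the rest of the chromosome, 13 of 25 steps with 5 genes or more did, with medians from -0.42 to 0.51. The distal medians ran from 0.30 in the step from 175 to 180 Mb (9 genes) to 0.70 in the first step beyond 140 Mb (12 genes). The part of a distal step's genes above 0 ran from 21 of 28 to 12 of 12. The lowest distal step median was 0.13 without vector replicate 1 and 0.39 without miR-23b/27b/24 replicate 2. In each of the 9 steps both miR-23b/27b/24 arrays had a higher centred median than both vector arrays. With all members, dim ones included, the step medians ran from 0.04 in the step from 165 to 170 Mb to 0.30 in the step from 155 to 160 Mb. With dim genes included, 16 of 27 steps on the rest of the chromosome lay above 0. Their medians ran from -0.07 to 0.15, so these ranges overlapped. Along the bright members, ordered by position, the longest run above 0 held 28 genes, from Ralgapb at 158.2 Mb to Zswim1 at 164.6 Mb. The longest run below 0 held 3. On the rest of the chromosome the longest runs held 14 bright genes above 0 and 13 below. Whether the runs were longer than the shares above 0 alone would give was not tested.

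**Figure D3:**
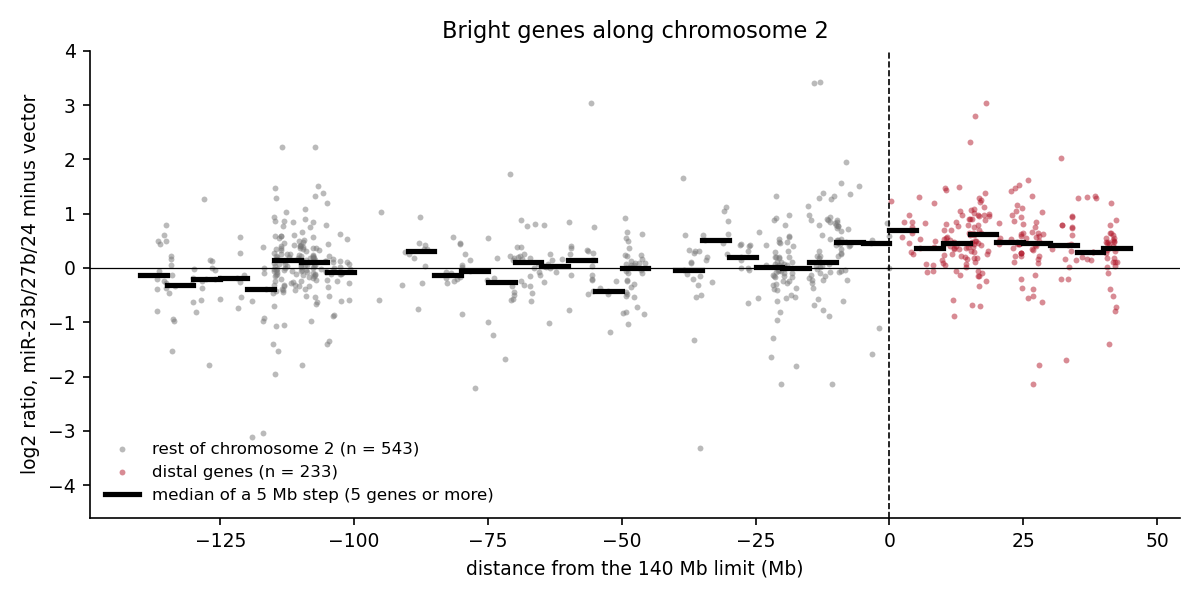
Difference in log2 ratio (miR-23b/27b/24 minus vector, vertical axis) of each bright gene against its distance from the 140 Mb limit (horizontal axis, Mb). Black bars are medians of 5 Mb steps with 5 genes or more. The 9 steps beyond the limit lie between 0.30 and 0.70, and the step that starts at 130 Mb lies at 0.49.

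The limit at 140 Mb did not mark an edge. Just inside it lay Macrod2, a mono-ADP-ribosylhydrolase, and Flrt3, a membrane protein of cell adhesion. The log2 ratio of Macrod2 was -0.91 and -0.48 with the vector, and 0.24 and 0.21 with the microRNA cluster. It differed by 0.92 ± 0.18 (SE), while its other probes gave -0.05 and 0.09. Flrt3 had 2.59 and 1.53 against 3.26 and 3.34, a difference of 1.24 ± 0.36. The vector arrays were over 1 apart, yet the groups did not overlap. Just outside lay Ndufaf5, an assembly factor of respiratory complex I, and Esf1, a nucleolar protein. Ndufaf5 had 0.25 and 0.19 against 0.18 and 0.26, and the groups overlapped. Esf1 had 0.79 and 0.87 against 1.56 and 1.28, a difference of 0.59 ± 0.15.

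Before the limit, the 31 bright genes of the step that starts at 130 Mb had a median of 0.49, with 26 above 0, which is near the value of the 233 members. The 7 of the step that ends at 140 Mb had a median of 0.46, with 4 above 0. The Notch ligand gene Jag1 there lay at -1.58 and Btbd3 at -1.10. The 39 of the step that starts at 125 Mb had a median of 0.11, and the 27 of the step that starts at 120 Mb one of 0.00. In steps of 2.5 Mb the median was 0.04 from 125 Mb (23 genes) and 0.68 from 127.5 Mb (16 genes). The step from 127.5 Mb was mixed, with 10 of 16 above 0. Elsewhere on the chromosome the step from 105 to 110 Mb had a median of 0.51 over 11 bright genes, 10 of them above 0, so a median of that size also stood apart from the distal stretch.

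**Figure D4:**
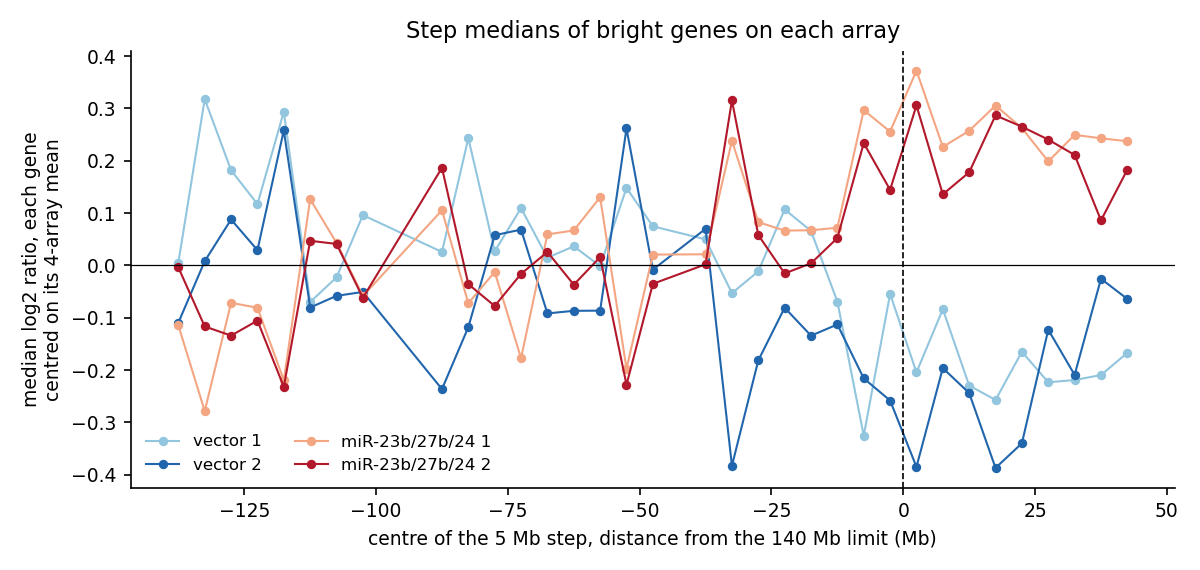
Median log2 ratio of bright genes in each 5 Mb step, with every gene centred on its mean over the 4 arrays (vertical axis), against the distance of the step's centre from the 140 Mb limit (horizontal axis, Mb). Lines are the 4 arrays, and steps with fewer than 5 genes are left out. Beyond the limit both miR-23b/27b/24 arrays lie above both vector arrays in all 9 steps.

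Medians of this size were seen on other chromosomes as well. The 387 steps of 5 Mb with at least 8 bright genes, those of chromosome 2 beyond 125 Mb left out, had medians from -0.93 to 0.75. Of these steps, 26 had a median above 0.3, against 8 of the 9 distal steps. They included 4 consecutive steps of the X chromosome that end at 165 Mb, with medians from 0.36 to 0.54, 2 adjacent steps on chromosome 15 at 0.75 and 0.32, and several steps on chromosome 4. Whole-chromosome medians of bright genes ran from -0.27 on chromosome 10 to 0.22 on chromosome 4, with chromosome 2 as a whole at 0.19. Whether distal chromosome 2 differed from these stretches was not tested.

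The whole-table fit adjusts over 20490 genes, of which 438 were members. At the Benjamini-Hochberg limit of 0.05, limma called 66 of these members higher and 3 lower. Of all genes tested, 4.77% were called higher and 4.65% lower, 9.41% in all. Both arrays of one group lay above both of the other for many genes. Of all 541 members, 245 were separated in this way on the higher side and 89 on the lower side. The 103 members that were not tested entered these counts. Among all genes tested the shares were 27.4% and 32.3%, so the sets are not alike. Among bright members these counts were 169 and 19, against 31.3% and 32.6% of bright genes, and 46 bright members were called higher and 2 lower, against 6.02% and 6.28% of bright genes. The region was picked on this contrast, so the counts are given as they are, here and in the gene lists below. Counts in those lists stand beside the 66 higher and 3 lower of the 438 members tested and the shares of genes tested. The counts of the region also moved with the arrays used. Without miR-23b/27b/24 replicate 1 or 2, 4 or 3 members were called higher and 1 or 2 lower. Without vector replicate 1 or 2 the counts were 122 or 95 higher and 27 or 13 lower, and with every local background as measured 20 were called higher.

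Among genes of cell division, replication and chromosomes, 16 of 18 members lay above 0 (median 0.63), 3 were called higher and none lower. All 15 bright members lay above 0, with a median of 0.76. Gins1, a subunit of the GINS complex that acts at replication forks, had -0.69 and -1.67 on the vector arrays and 0.43 and 0.07 on the others, a difference of 1.44 ± 0.35 that was not called. Rtel1, a helicase that protects telomeres, had -0.63 and -0.91 against 0.55 and 0.31 and was higher by 1.20 ± 0.16. Cse1l, an export receptor of importin alpha, and Mapre1, which binds microtubule ends, were the other members called, with differences of 1.33 and 0.97. Cep250, a centrosomal linker protein, had -0.74 and -1.33 against -0.18 and -0.38. In this list, dim members included, vector replicate 1 lay above vector replicate 2 by a median of 0.28, against 0.01 over all 541 members. Over all bright members that median was 0.06. Without the list the bright members had a median of 0.46.

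RNA processing and translation had the most called members of the lists, and also the most bright ones, 26 of 29. Of the 29, 26 lay above 0 (median 0.38), 10 were called higher and 1 lower. Srsf6, a splicing factor rich in serine and arginine, had -1.56 and -1.90 against -0.17 and -0.45 and was higher by 1.43 ± 0.18. Nxt1, a cofactor of messenger RNA export, was higher by 1.21, and the RNA-binding proteins Rbm12 and Rbm39 by 1.08 and 1.02. Eif2s2, the beta subunit of initiation factor eIF2, was nearest the list's median, with -0.06 and 0.12 against 0.32 and 0.51. Its difference was 0.38 ± 0.14, and its other probes gave 0.36 to 1.31. Samhd1, a dNTP hydrolase, had 0.36 and 0.22 against -0.34 and -0.49 and was the member called lower, with a difference of -0.71.

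Of 18 members of proteasome, chaperones and protein turnover, 17 lay above 0 (median 0.46) and 2 were called higher. Their range was narrow, from -0.13 for Rnf114, a ubiquitin ligase, to 0.90 for Edem2, which takes part in the disposal of misfolded glycoproteins. Edem2 had -0.44 and -0.54 against 0.33 and 0.48, although its other probe gave 0.14. Psma7, an alpha subunit of the proteasome core, had 0.03 and -0.18 against 0.39 and 0.40, a 1.39-fold difference (0.47 ± 0.13). Psmf1, an inhibitor of the proteasome, was the second member called, at 0.69.

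Metabolism and glycosylation held 26 members, of which 22 lay above 0 (median 0.44), 6 were called higher and none lower. All 19 bright ones lay above 0. Pofut1, which adds O-fucose to Notch, had -0.46 and -0.36 against 1.13 and 1.03, a 2.81-fold difference, and its other probe gave 1.09. Tgm2, a transglutaminase that cross-links proteins, was higher by 1.38, and Rpn2, a subunit of the oligosaccharyltransferase, by 1.25. Srxn1, which restores oxidised peroxiredoxins, had -0.22 and -0.19 against 0.42 and 0.08. Acss1, a mitochondrial acetyl-CoA synthetase far below the reference on every array (-4.28 to -4.15), differed by 0.06.

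Transcription factors and chromatin proteins were split by brightness. Of 42 members, 29 lay above 0 (median 0.11) and 5 were called higher, while 19 of the 20 bright ones lay above 0 (median 0.56). Ncoa3, a coactivator of nuclear receptors, had -0.34 and -0.40 against 1.19 and 1.30, a 3.08-fold difference. Its other probes gave 0.24 to 1.44. Ncoa5, a related coregulator, was higher by 1.10 and Asxl1, a Polycomb-associated protein, by 1.06. Tissue-specific factors such as Pax1, Nkx2-2, Foxa2 and Insm1 lay between -0.12 and 0.00. Scand1, nearest the median, had 0.20 and 0.33 against 0.26 and 0.51, and the groups overlapped.

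Of 31 kinases, phosphatases and signalling adaptors, 19 lay above 0 (median 0.10), 4 were called higher, and 16 of the 18 bright ones lay above 0 (median 0.48). Pkig, an inhibitor of protein kinase A, was higher by 1.47, and Ywhab, a 14-3-3 adaptor, by 1.16. The kinase gene Src had 0.63 and 0.49 against 1.12 and 1.27 and was not called. Rin2, an exchange factor for Rab5, had 1.21 and 0.19 against 1.89 and 2.13. Sgk2, a kinase related to Akt, had 2.78 and 0.72 against 0.28 and -0.06. It differed by -1.64 ± 0.68, with the vector arrays over 2 apart. Rgs19, which speeds GTP hydrolysis by G proteins, differed by 0.10 ± 0.19.

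Membrane traffic and cytoskeleton had 21 of 28 members above 0 (median 0.31), with 4 called higher and 2 lower. Arfgap1, a GTPase activator at the Golgi, was higher by 1.20, Rrbp1, a ribosome-binding protein of the endoplasmic reticulum, by 0.97 and Sec23b, a COPII coat subunit, by 0.71. Both members called lower are adaptors with PDZ domains. Sdcbp2, or syntenin-2, had 2.20 and 2.12 against -0.61 and -0.21, a 5.92-fold lower ratio and the lowest value of all 541 members. Pard6b, of the PAR polarity complex, had 1.24 and 1.21 against -0.72 and -0.39, a 3.44-fold lower ratio, and its other probes gave -0.73 and -0.64. Osbpl2, an oxysterol-binding protein, had -0.07 and 0.29 against 0.43 and 0.44.

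Genes for receptors, ligands and surface proteins were mostly dim: 7 of 22 were bright, 11 lay above 0 and the median was -0.01. They nevertheless held the largest difference among the 541 members. Of the genes left out by the rule, Slpi (5.33) and Bmp7 (-4.26) lay further from 0. Lbp, the lipopolysaccharide-binding protein, had -1.18 and -1.50 against 1.44 and 1.96 and was 8.24-fold higher (3.04 ± 0.23). Pltp, the phospholipid transfer protein of the same family, had -1.08 and -1.17 against 0.81 and 1.05, a 4.15-fold difference. Sdc4, the heparan sulfate proteoglycan syndecan-4, was higher by 1.53. Procr, the endothelial protein C receptor, had 2.11 and 1.70 against 1.03 and 1.40, and Cbln4, a synaptic organiser, had 0.24 and 0.13 against 0.18 and 0.22.

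Cystatins and WAP-domain genes, many of them protease inhibitors, lie in clusters in the region and were mostly dim. Of 20, 1 was bright, 11 lay above 0 and the median was 0.00. The bright one was Cst3, or cystatin C, with -1.13 and -1.24 against -0.71 and -0.68. Among these members Wfdc12 stood out: it had 0.20 and 0.18 against 2.23 and 2.90 and was 5.20-fold higher. Its neighbour Wfdc15a differed by 0.22 and Wfdc5 by -0.36. Cst11 differed by -0.09 ± 0.13. A pair of bright WAP-domain genes of the region, Slpi (a difference of 5.33) and Wfdc2 (0.28), were among the genes left out by the selection rule.

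Of 6 genes listed as imprinted, 4 lay above 0 and 2 were called higher. Whether any of them was expressed from 1 parental copy in these cells was not measured. Gnas, the alpha subunit of the stimulatory G protein, had -0.01 and 0.18 against 0.96 and 1.10, and its other probes, in a locus with several transcripts, gave -0.13 to 1.80. H13, a signal peptide peptidase, was higher by 0.86. Mcts2, a retrogene within an intron of H13, had 0.01 and -0.41 against -0.17 and -0.34, and Blcap differed by -0.09.

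Single genes stood out from the common displacement in both directions. Above 1 lay 14.6% of bright members, against 5.34% of bright genes on the rest of chromosome 2. Below -1 the shares were 1.72% and 4.97%, so low single genes were not more frequent in the region. Beside Lbp, Wfdc12 and Pltp, the highest members with an ordinary symbol included Trp53inp2, which takes part in autophagy, with -0.56 and -1.31 against 1.41 and 1.35 (4.98-fold), and Fam210b, a mitochondrial protein, with 0.79 and 0.53 against 2.52 and 2.87 (4.08-fold). A second Fam210b probe gave 2.24. The transcript TC1479950, which has no ordinary symbol and is named after its value was seen, had -1.88 and -2.06 against 1.13 and 0.52, a difference of 2.80. Of the 4 bright members below -1, Pard6b was called. Zfas1, a non-coding RNA that hosts small nucleolar RNAs, had 0.55 and 1.81 against -1.14 and -0.75, and its antisense neighbour Znfx1 lay at -0.38. Zbp1, an interferon-induced sensor of nucleic acids, had 0.46 and 1.82 against -0.40 and -0.71. Slco4a1, an organic anion transporter, had 1.55 and 0.79 against 0.15 and -0.61. For Zfas1 and Zbp1 the vector arrays were over 1 apart, although the groups did not overlap for any of the 3.

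The named members with the lowest differences of their steps were mostly dim. Otor, an otoraplin gene of the inner ear, differed by -0.63 ± 0.29, Slc24a3, a sodium, potassium and calcium exchanger, by -0.71 ± 0.42, and Mroh8 by -0.89 ± 0.36. Each of these was not called, and another probe of Mroh8 gave -0.08. Phactr3, a regulator of protein phosphatase 1, differed by -0.12 ± 0.14. In the step from 175 to 180 Mb, 2 of the 9 bright members, 2210418O10Rik and LOC626832, had probes that shared most of their sequence. They differed by 1.31 and 1.30, so they are 1 measurement rather than a pair, and the vector arrays lay 0.90 apart there. The 75th percentile of the 9 was 1.30 and the highest value 1.32, so further members stood near the same value. Whether those are separate measurements was not tested. The zinc finger gene Zfp972 had -0.42 and -0.60 against 0.09 and 0.03.

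**Figure D5:**
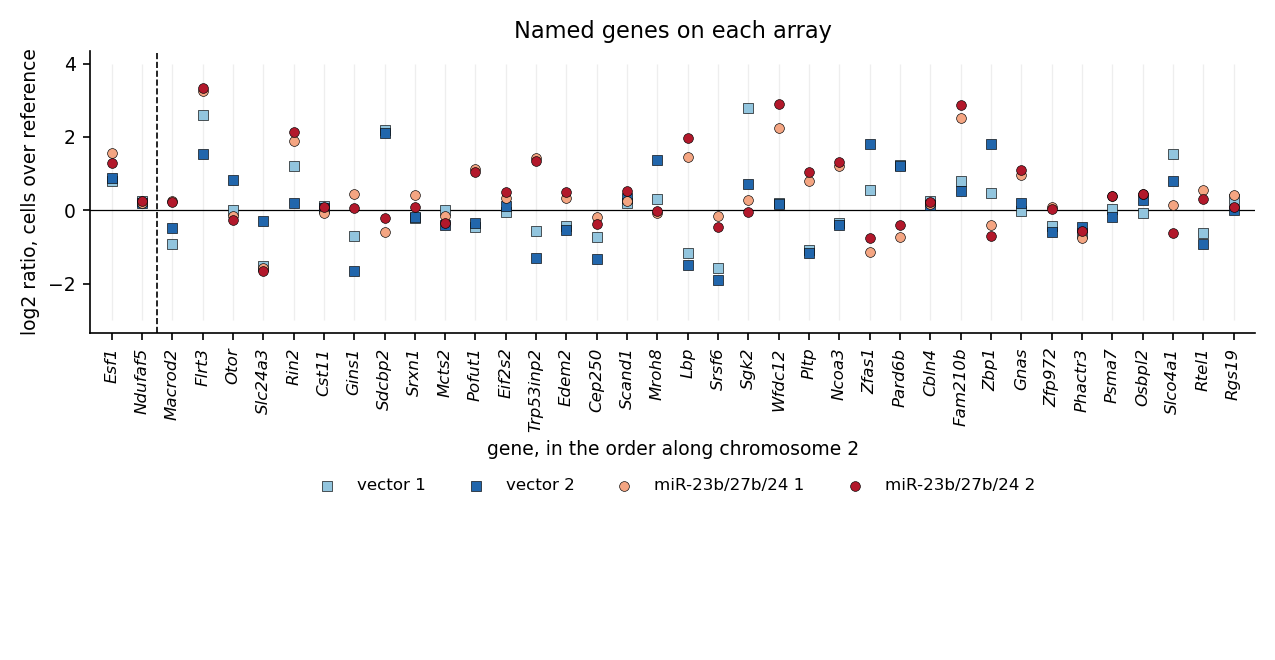
Log2 ratio of cells over reference (vertical axis) on each of the 4 arrays for the named genes, in their order along chromosome 2 (horizontal axis), with the 140 Mb limit as a dashed line. Squares are vector arrays and circles miR-23b/27b/24 arrays. For Lbp the circles stand at 1.44 and 1.96 and the squares at -1.18 and -1.50, and for Sdcbp2 the order is turned.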

How the data were processed

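Expression was measured on 4 two-colour Agilent arrays, 2 per group, on 1 slide in 1 scan, so no slide or scan block was possible. Intensity of spots (mean signal) and of their surroundings (local background) came from Feature Extraction 9.5.3.1, per the file headers, as did a log10 ratio of the processed channels, Cy5 over Cy3. The authors' deposited value table holds log2 ratios with each probe's median subtracted, and its program is not given here.

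In R 4.3.3 with limma 3.58.1, outlying local backgrounds were replaced by the array's median, followed by normexp (offset 50) and loess within arrays. Control spots and outliers were dropped, and repeated spots of a probe averaged. Symbols came from a RefSeq table (GRCm38.p6), which named 420 of 541 members. The fit used lmFit and eBayes over 20490 genes that passed the filter, with Benjamini-Hochberg adjustment. It was tested on simulated data. An SE of a gene is that of limma, and that of a median comes from the 4 arrays' values.

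Named genes were members with an ordinary symbol, above background on all 4 arrays. They were the highest and lowest of each step, the 6 highest and 6 lowest without overlap, the 2 nearest the limit on each side, and from each of 10 role lists the largest in size and the one nearest the median. Other list members named are examples chosen after their values were seen. Members, lists and rules were chosen with earlier results of these data known. Alternatives covered background, scaling, filter, probe choice, region start, step width, moderation, a replicate block and each array left out.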

Additional observations from a re-analysis of the deposited data

How the results depend on the processing

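Over the 19 alternative settings that could change it, the median of the bright members lay above 0, from 0.45 to 0.53, and between 80.9% and 87.6% of them lay above 0. The limit for brightness, the start at 130 Mb, and leaving out the cell division list or shared probes were chosen after seeing the data. The cause of the moves that follow was not tested.

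Genes called (1929) numbered 635 with every local background as measured (20 members higher) and 1261 with median centring. Members called lower (3) numbered 6 with the Feature Extraction log ratio, 6 with the authors' deposited table, 5 with the 11 left-out genes of the region put back and 5 from 130 Mb. Leaving out arrays in turn, with the lone array of a group assumed to vary like the other group, gave 212 to 4586 genes called, 3 to 122 members higher and 1 to 27 lower. It gave all-member medians of 0.11 to 0.13, medians minus the rest of 0.10 to 0.15, shares of 63.4% to 66.7%, interquartile ranges of 0.58 to 0.62 and highest step medians of 0.31 to 0.36. For bright members it gave medians minus the rest of 0.39 to 0.47 and lowest step medians of 0.13 to 0.39.

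The replicate block gave 1770 genes called, with 54 members higher and 5 lower. Nothing in the labels pairs the numbers, and deviations of same-numbered arrays correlated at 0.05.

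The all-member median (0.11) was 0.19 with the Feature Extraction log ratio, 0.24 with the deposited table, 0.13 without background correction, 0.10 with Cy5 alone, 0.19 over genes detected in the reference and 0.22 over genes passing the filter. Minus the rest of chromosome 2 (0.12) it was 0.19, 0.25, 0.20 and 0.24 with the log ratio, the deposited table, the reference-detected and the filtered genes. The share above 0 (65.4%) was 61.6%, 63.2%, 67.5% and 68.5% in that order, and 62.7% with Cy5 alone. The interquartile range (0.59) was 0.78 with the log ratio, 0.78 with the deposited table, 0.67 and 0.69 over reference-detected and filtered genes, 0.64 with median centring and 0.64 without background correction.

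The highest step median of all members (0.30) was 0.44 with the log ratio, 0.45 with the deposited table, 0.44 and 0.45 over reference-detected and filtered genes, 0.37 with median centring, 0.21 without the cell division list, 0.42 in 2.5 Mb steps and 0.15 in 10 Mb steps. The lowest (0.04) turned to -0.037 in 2.5 Mb steps and was 0.11 over reference-detected genes. Of bright members, the highest step median (0.70) was 0.97 in 2.5 Mb steps, 0.55 in 10 Mb steps and 0.78 with median centring. The bright median was 0.53 with median centring, and the share above 0 was 80.9% from a brightness of 8.

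Of 38 named genes, none turned its sign while called under the settings tried. Cbln4, Mcts2, Ndufaf5, Rgs19 and Scand1, with small differences, lay on both sides of 0 over the settings, Mcts2 from -0.27 to 0.16. The number of named genes that moved by more than 1 replicate SD was at most 11, with every local background as measured. Probes at low signal limit the dim members, and 2 arrays per group limit every value.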
